A study of Mus musculus with 141 samples.

Results

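The genes described here encode the subunits, assembly chaperones, activators and inhibitor of the proteasome. They were taken by symbol, as every gene named Psm followed by a letter from a to g and a number, without pseudogene symbols, which gave 49 of the 46517 genes in the table. The proteasome is the protease that degrades proteins tagged with ubiquitin. Its barrel-shaped core has outer rings of alpha subunits and inner rings of beta subunits, of which Psmb5, Psmb6 and Psmb7 cut the substrate, and a regulatory particle of ATPase (Psmc) and non-ATPase (Psmd) subunits recognises, unfolds and feeds in substrates. In cells of the immune system Psmb8, Psmb9 and Psmb10 can replace Psmb5, Psmb6 and Psmb7 to form the immunoproteasome, whose genes are induced by interferons and whose products are peptides for presentation on MHC class I molecules.

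RNA was sequenced from mouse CD4 T cells over 72 h of culture, in 47 groups of 3 libraries. The starting cells were naive CD4 T cells (CD4+CD25-CD44lo), which have not met antigen, sorted from C57BL/6 mice (spleen and lymph nodes) and taken at 0 h. All cultured groups received plate-bound antibodies to CD3 and CD28, which stimulate the T cell receptor and a co-receptor, and were taken at 9 times: 0.5, 1, 2 and 4 h, then 6 and 12 h, then 24, 48 and 72 h. Replicates are biological per the labels and are called courses here; the sources used here do not give which mice contributed to a course, or their age and sex. In courses 1 to 3 the cells received either no polarizing cytokines (the condition called Th0) or IL6 at 20 ng/ml with TGFb at 1 ng/ml, the pair that starts Th17 differentiation toward cells that make interleukin 17. In courses 4 to 6 the cells received IL6 and TGFb at those doses with IL1b at 10 ng/ml, with IL21 at 20 ng/ml, or with both, and had their own 0 h group.

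Levels are reads scaled to a common library total (CPM) and divided by a library factor from trimmed-mean scaling (TMM), and changes are log2 differences ± SE with p-values from limma adjusted over all genes tested. A gene is said to have risen or fallen where its adjusted p was under 0.05. Libraries held 15.95 to 47.07 M reads (median 25.4 M), so that 1 read was at most 0.0627 CPM. The library without cytokines at 72 h of course 1 stood farthest from the mean of its own group (root mean square log2 distance 0.621, next 0.423), and results that it moves are given with and without it. The summed level of 6 T cell markers (Cd3d, Cd3e, Cd3g, Cd4, Cd28, Lck) was 3837 to 4081 in naive cells, against 11.7 to 17.4 for 8 B cell markers, 58.9 to 61.6 for 10 myeloid markers and 16.7 to 23.97 for 2 CD8 T cell markers. In RNA from bulk cells, fewer cells that express a gene and less of its RNA per cell cannot be told apart.

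Of the 49 genes, 48 passed the filter of at least 1 CPM in at least 3 libraries. Psma8, an alpha subunit of the testis, did not pass (highest library 0.458) and was not tested. Psmb11, the catalytic subunit of the thymoproteasome of thymic cortex, was low throughout (0.0850 to 2.53 in all libraries). Its group means reached 1 CPM only at 4 h or earlier. Without cytokines they were 0.920 in naive cells, 1.46 at 1 h and 0.500 at 24 h. Psme2b averaged 12.7 in naive cells and 0.250 at 12 h without cytokines. Both thus passed the filter through groups where they were high, and their falls from naive are not independent of it. Exons of 14 of the 49 genes share bases with another annotated gene, among them Psmb9 with Tap1 on the opposite strand (5.79% of its exon bases) and Psmb8 with the antisense gene Gm20496 (14.7%). The sources used here do not say whether the counting used strand, so those reads may be split. Psme2b resembles Psme2 closely in sequence, and reads of these may also have been shared.

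Sequence before the annotated start of Psmb8, Psmb9, Psmb10, Psmb5 and Psmb6 is shown because the replacing and the replaced catalytic subunits moved in opposite directions in these cells. Sequences and starts are from RefSeq on build GRCm38.p6, in which the 250 bases before each start were searched, and are read 5′ to 3′ on the strand of the gene. Capitals mark matches to the motifs searched on both strands: the interferon-stimulated response element (GAAA, any 2 bases, then GAAA again), the gamma-activated site (TTCNNNGAA), the antioxidant response element (TGACNNNGC), CCAAT and the GC box (GGGCGG). The GENCODE vM21 annotation starts some of these genes farther upstream, so that the 250 bases lie wholly inside the annotated gene for Psmb8 and Psmb9, and 52 of them for Psmb10, 27 for Psmb5 and 0 for Psmb6. For the latter 3 the bases outside the gene are shown, 198, 223 and 250 of them, and for Psmb8 and Psmb9 30 bases around a match. Psmb8 is at chr17:34198088-34198117 on the plus strand, Psmb9 at chr17:34187366-34187395 on the minus strand, Psmb10 at chr8:105938445-105938642 on the minus strand, Psmb5 at chr14:54618023-54618245 on the minus strand and Psmb6 at chr11:70525107-70525356 on the plus strand.
Psmb8: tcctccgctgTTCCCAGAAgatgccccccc
Psmb9: cgcgatgatgGGGCGGggcctcagtctgca
Psmb10: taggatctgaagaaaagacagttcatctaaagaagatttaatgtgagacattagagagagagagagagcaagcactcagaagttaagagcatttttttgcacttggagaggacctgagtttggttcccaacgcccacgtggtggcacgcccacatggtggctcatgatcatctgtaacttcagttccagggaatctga
Psmb5: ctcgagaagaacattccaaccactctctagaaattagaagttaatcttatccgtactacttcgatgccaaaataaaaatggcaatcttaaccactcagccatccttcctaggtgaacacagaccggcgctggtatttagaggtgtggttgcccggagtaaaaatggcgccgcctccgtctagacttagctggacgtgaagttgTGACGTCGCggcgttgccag
Psmb6: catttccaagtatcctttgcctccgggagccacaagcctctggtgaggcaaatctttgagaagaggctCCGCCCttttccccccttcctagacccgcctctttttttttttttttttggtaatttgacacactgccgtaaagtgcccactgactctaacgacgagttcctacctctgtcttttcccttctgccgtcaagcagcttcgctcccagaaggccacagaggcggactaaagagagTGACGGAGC

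The 250 bases of Psmb8 held a gamma-activated site motif that starts 97 bases before the RefSeq start. Those of Psmb5 and Psmb6 each held the antioxidant response element motif, 47 and 9 bases before the start. Psmb9 held a CCAAT and a GC box, Psmb6 a GC box, and Psmb10 no match. Over the 44 stretches of that length found for 41 of the 49 genes, the GC box was in 23 (52.3%), against 32.7% of 32851 mouse stretches. The antioxidant response element was in 5 (11.4%, all 10.2%), CCAAT in 14 (31.8%, all 33.9%), the interferon-stimulated response element in 3 (6.82%, all 2.98%) and the gamma-activated site in 2 (4.55%, all 7.02%). A match describes letters and not a bound site, and none of these motifs was tested against expression. Promoters of Psma8, Psmb1, Psmb2, Psmb7, Psmc3, Psmd3, Psmd7 and Psmg2 are not shown here.

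Cells stimulated without polarizing cytokines were first compared with naive cells taken at 0 h. No group was cultured without the stimulating antibodies, so effects of activation and of time in culture cannot be told apart in comparisons with naive cells. Most proteasome genes rose within 2 h and stood highest at 12 h, while the 3 immunoproteasome subunits fell over the first 6 h. At 2 h 34 of the 48 tested genes had risen and 6 had fallen, against 32.2% and 36.9% of all genes tested. At 6 h 41 had risen and 4 fallen (all genes 34.9% and 37.5%). The 24 h counts were 42 and 5 (all genes 36% and 36.7%), and the 72 h counts 35 and 4 (all genes 33.4% and 31.9%). Without the immunoproteasome and interferon-responsive PA28 genes, 34, 39, 41 and 35 of 42 had risen at the 4 times and 2, 0, 1 and 2 had fallen. The median log2 change over the 48 was 0.54, 1.27, 1.07 and 0.63 at these times, and over all genes it was -0.04, -0.05, -0.03 and -0.01. Leaving out TMM scaling shifted all log2 changes at 2 h by -0.24, at 24 h by 0.11 and at 72 h by 0.12, and the 2 h counts then became 28 risen and 10 fallen. Without the 72 h library of course 1 the 72 h count was 38 genes in all in place of 39.

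**Figure D1:**
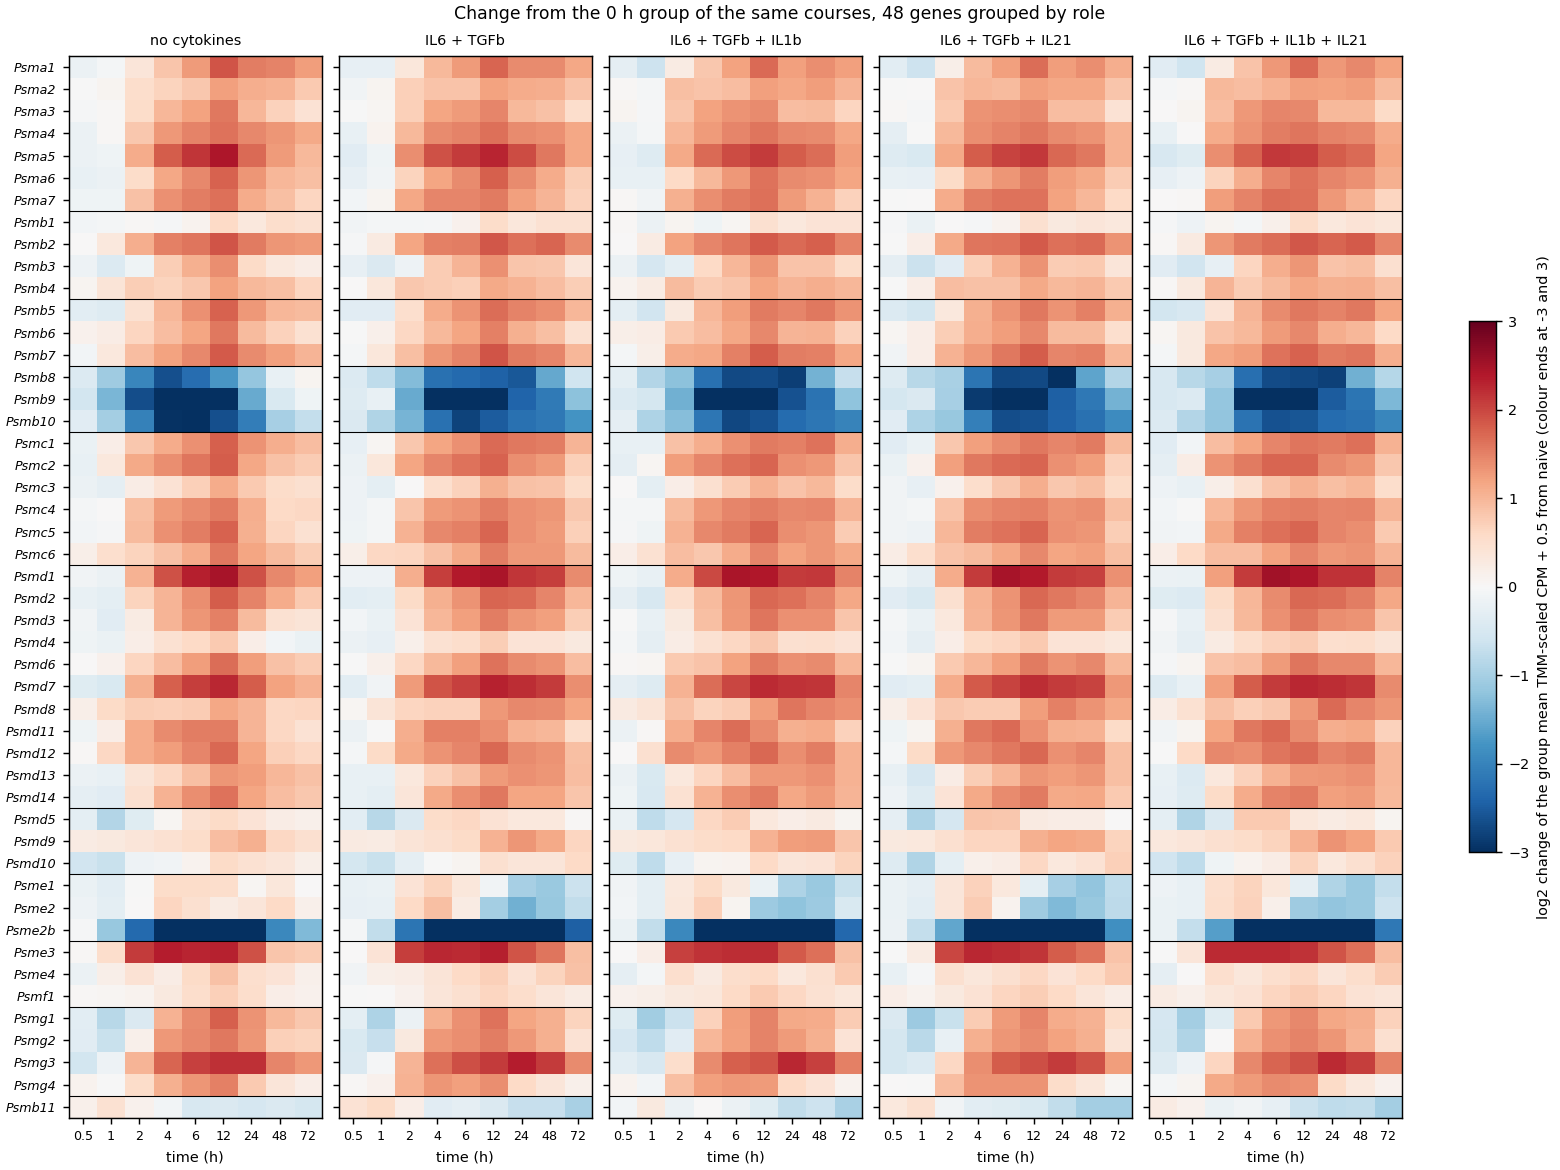
Log2 change from the same set's 0 h group (colour, ends at -3 and 3) for the 48 tested genes in rows, by role, and the time of culture in columns in hours, for each of the 5 culture conditions. Most rows turn red toward 12 h in every condition, and Psmb8, Psmb9, Psmb10 and Psme2b turn blue.

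All 7 alpha ring genes rose at each of 2, 6, 24 and 72 h (all genes 32.2%, 34.9%, 36% and 33.4%). Their median log2 changes were 0.55, 1.44, 1.31 and 0.86. Psma5, an alpha subunit, had the largest rise of its ring at 24 h. Its levels were 23.6, 24.8 and 27.3 in naive cells, 119.7, 113 and 107 at 6 h and 134, 142 and 139 at 12 h, a log2 change of 2.14 ± 0.11, adjusted p = 3.42e-21 at 6 h. The naive and stimulated libraries did not overlap.

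Of the 4 non-catalytic beta subunits (Psmb1, Psmb2, Psmb3, Psmb4), 2 rose at 2 h, 3 at 6 h and 4 at both 24 and 72 h. The shares of all genes that rose were 32.2%, 34.9%, 36% and 33.4%. Psmb2 changed by 1.55 ± 0.08, adjusted p = 4.90e-22 at 24 h. Psmb1 behaved differently in size: its log2 change was 0.02 ± 0.09 at 2 h and 0.10 ± 0.09 at 6 h, neither passing the test (adjusted p = 0.82 and 0.288), and 0.30 ± 0.09 at 24 h, which did.

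The constitutive catalytic subunits Psmb5, Psmb6 and Psmb7, which carry the chymotrypsin-like, caspase-like and trypsin-like activities, rose at all 4 times, with median log2 changes of 0.65, 1.36, 1.30 and 0.95. Psmb5 stood at 25.5, 26.2 and 29.8 in naive cells, 37.7, 35.5 and 38.9 at 2 h, then 73.96, 71.1 and 66.9 by 6 h, reaching 94.9, 92.7 and 93.9 at 12 h. Each of these times lay above the one before without overlap. It then eased to 63.7, 65.3 and 74.5 at 24 h and 58.9, 46.98 and 53.3 at 72 h, still above every naive library. Its log2 change from naive was 1.36 ± 0.10, adjusted p = 2.22e-16 at 6 h and 1.30 ± 0.10, adjusted p = 1.20e-15 at 24 h. Psmb6 went from 68.3, 73.9 and 67.4 in naive cells to 201, 216 and 209.9 at 12 h, with a log2 change of 0.94 ± 0.08 at 24 h. Psmb7 went from 37.7, 37.9 and 40.7 to 136, 144 and 139, with a log2 change of 1.42 ± 0.11 at 24 h. For both genes all 12 h libraries lay far above all naive ones.

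The immunoproteasome subunits moved the other way. Psmb8, which takes the place of Psmb5, stood at 166, 170.3 and 188 in naive cells, 45.1, 43.6 and 45.3 at 2 h and 38.9, 36.6 and 31.1 at 6 h. It was already lower in every library at 2 h, and at 6 h its mean was 4.92-fold below naive (log2 change -2.29 ± 0.17, adjusted p = 3.80e-16). At 24 h it stood at 80.6, 63.01 and 88.96, and at 72 h at 125, 192 and 238. The 24 h libraries lay between the 6 h and the naive ones, and the 72 h libraries overlapped the naive range (log2 change 0.03 ± 0.17, adjusted p = 0.875). Without the 72 h library of course 1 the 2 left lay above every naive library, with a change of 0.29 (adjusted p = 0.128).

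Psmb9, which takes the place of Psmb6, had the largest change of the 3 at 6 h. It stood at 149, 144 and 148 in naive cells, 25.4, 20.5 and 23.05 at 2 h and 11.2, 10.4 and 11.2 at 6 h, a 13.4-fold lower mean at 6 h (log2 change -3.69 ± 0.15, adjusted p = 6.18e-24). It returned to 48.3, 41.8 and 63.8 at 24 h and 131, 121 and 151 at 72 h. At 72 h its range again overlapped naive cells (log2 change -0.13 ± 0.15, adjusted p = 0.461; -0.12, adjusted p = 0.585, without the library of course 1).

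Psmb10, which takes the place of Psmb7, stood at 119.7, 126 and 125 in naive cells, 30.96, 29.2 and 29.1 at 2 h and 15.4, 15.3 and 13.4 at 6 h, with a mean 8.41-fold lower at 6 h (log2 change -3.03 ± 0.18, adjusted p = 7.63e-19). It was at 24.8, 27.9 and 33.7 at 24 h and 49.9, 79.8 and 93.95 at 72 h. All 72 h libraries lay below all naive ones, with a log2 change of -0.77 ± 0.18, adjusted p = 3.00e-04. Without the 72 h library of course 1 that change was -0.51 (adjusted p = 0.0153).

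**Figure D2:**
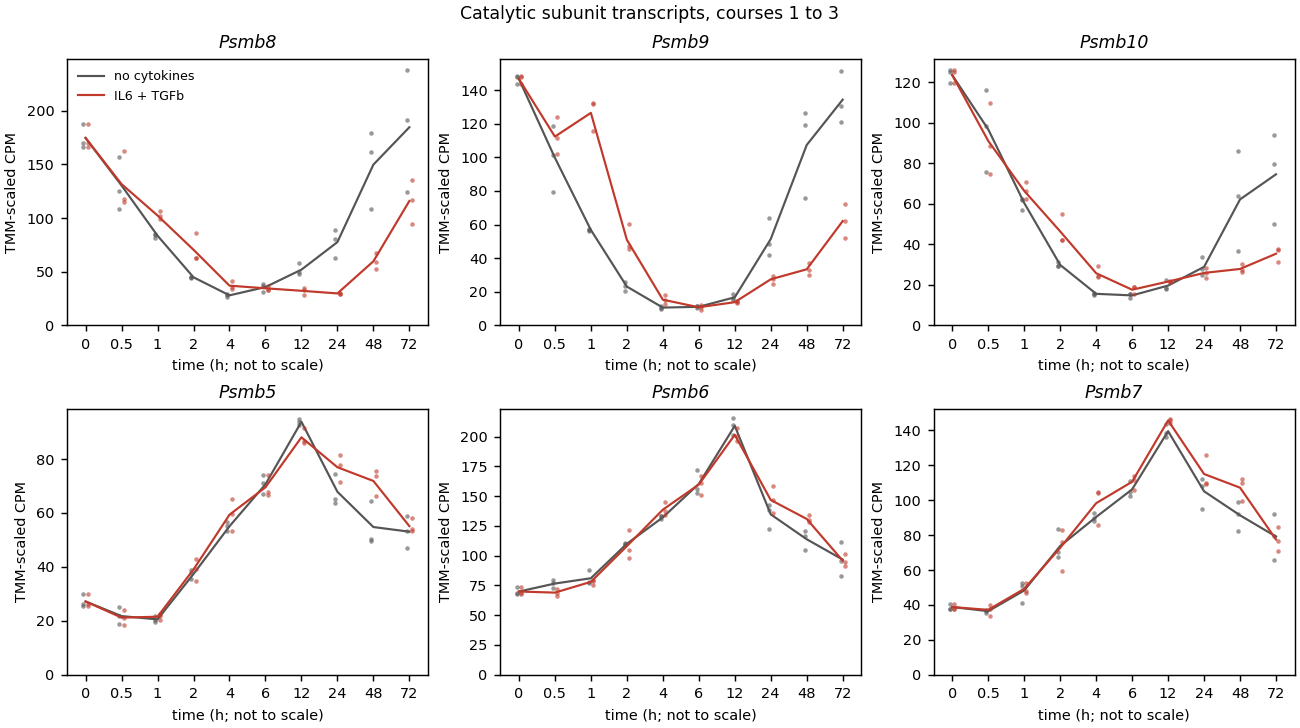
TMM-scaled CPM (linear axis from 0) of the 3 immunoproteasome subunits and the 3 constitutive subunits they replace against time in culture in hours (times evenly spaced, not to scale), without cytokines and with IL6 and TGFb. Points are libraries and lines are means of 3; Psmb8, Psmb9 and Psmb10 have their lowest means between 4 and 24 h while Psmb5, Psmb6 and Psmb7 peak at 12 h.

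All 6 ATPases of the regulatory particle rose at each of the 4 times (all genes 32.2%, 34.9%, 36% and 33.4%). Their median log2 changes were 0.86, 1.39, 1.13 and 0.68, and Psmc1 rose the most at 24 h (1.35 ± 0.08). All 11 non-ATPase subunits rose at 2, 6 and 24 h, with medians of 0.66, 1.39 and 1.19. The 2 h rises of the ATPase Psmc3 and of Psmd4 were lost without course 1 (adjusted p = 0.0596 and 0.0921) and turned to the lower side, uncalled, without TMM scaling (-0.0122 and -0.0444). Psmd1, a large scaffold subunit of the particle's base, went from 57.05, 61.7 and 64.04 in naive cells to 331, 293 and 303 at 6 h and 341, 341 and 337 at 12 h. No stimulated library of these times came near the naive ones (log2 change at 6 h 2.33 ± 0.10). At 72 h 10 of the 11 were still above naive and Psmd4, a receptor for ubiquitin chains, was below (-0.20 ± 0.07, adjusted p = 0.00729). The Psmd4 call was lost without TMM scaling (-0.07, adjusted p = 0.249) and without course 2 (adjusted p = 0.25).

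Among the chaperones that assemble the particles, some fell at 2 h before they rose. Of the core chaperones Psmg1 to Psmg4, 2 had risen at 2 h and 4 at 6 and 24 h (all genes 32.2%, 34.9% and 36%). Psmg1 fell first (-0.43 ± 0.11, adjusted p = 0.00102 at 2 h) and was then higher by 1.42 ± 0.11 at 6 h. Psmg3 went from 4.68, 4.99 and 5.23 in naive cells to 19.9, 26.6 and 26.4 at 24 h, the largest rise among the core chaperones. Of the regulatory particle chaperones, Psmd5 stood at 46.7, 52.1 and 50.5 in naive cells and 39.95, 39.3 and 35.95 at 2 h, a fall (-0.37 ± 0.09, adjusted p = 4.27e-04), and at 6 h it had risen (0.46 ± 0.09). Psmd9 changed by 1.07 ± 0.09 and Psmd10 by 0.46 ± 0.11 at 24 h, both rises.

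Leaving aside Psmb8 to Psmb10, the interferon-responsive PA28 genes, Psma8 and Psmb11, 41 genes remain. Of these, 39 had their highest mean at 12 h without cytokines, and 33 with IL6 and TGFb. Their lowest mean came at 0, 0.5 or 1 h for all 41, in both conditions. It was at 0 h for 10, at 0.5 h for 16 and at 1 h for 15 without cytokines. With IL6 and TGFb the numbers were 6, 24 and 11. Most of these genes thus had a mean below naive at 0.5 or 1 h, times at which no test was planned. In courses 4 to 6, 27 were highest at 12 h with IL1b, 30 with IL21 and 25 with both.

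The activators that cap the core did not move together. PA28 alpha and beta, encoded by Psme1 and Psme2 and induced by interferon, rose at 6 h (0.56 ± 0.10 and 0.47 ± 0.14) and differed little from naive at 2 h (-0.02 ± 0.10 and 0.02 ± 0.14, neither called). Psme3, the nuclear PA28 gamma, stood at 138, 147 and 148 in naive cells, 588, 623 and 635 at 2 h and 748, 679 and 685 at 6 h. Its mean was 4.26-fold above naive by 2 h with no overlap (log2 change 2.09 ± 0.15, adjusted p = 7.55e-16). At 72 h it was still higher (0.71 ± 0.15, adjusted p = 1.01e-04; 0.46 without the library of course 1). Psme4, the nuclear activator PA200, rose by less (0.49 ± 0.07 at 24 h), as did the inhibitor Psmf1 (0.53 ± 0.10). Psme2b, which is similar in sequence to Psme2, went from 13.5, 10.03 and 14.6 in naive cells to 0.623, 0.533 and 0.188 at 6 h. The 6 h libraries held few reads of it, and its fitted fall (-3.82 ± 0.31) depends on the pseudocount. Psmb11 was called lower at 24 h (-0.51 ± 0.22, adjusted p = 0.0375) and at 72 h (-0.54 ± 0.22, adjusted p = 0.0305), at levels near the filter; the 72 h call was lost without the library of course 1 (adjusted p = 0.221).

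**Figure D3:**
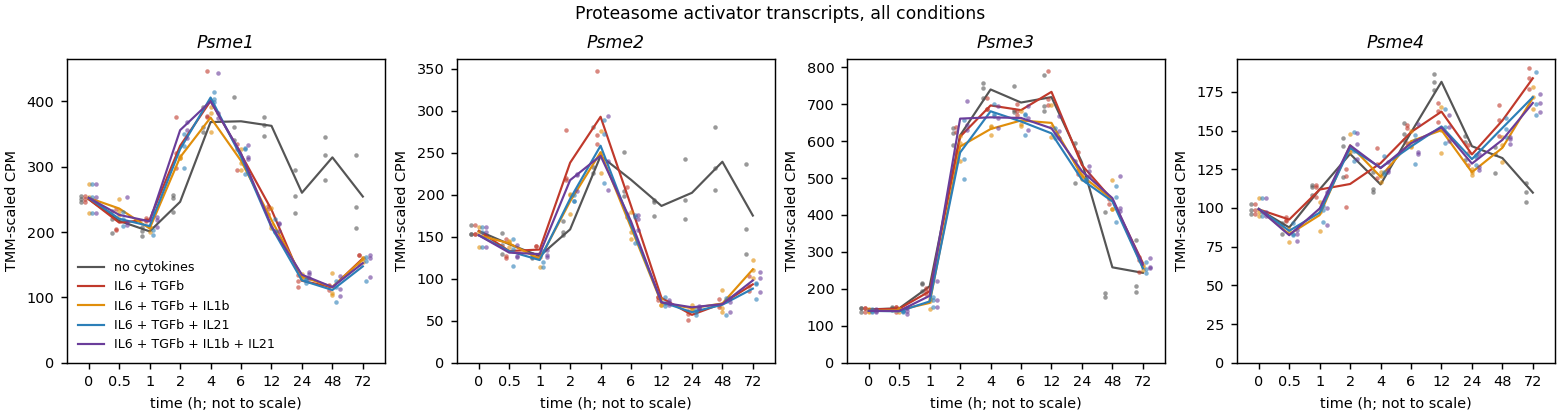
TMM-scaled CPM (linear axis) of the activator genes Psme1, Psme2, Psme3 and Psme4 against time in culture in hours (times evenly spaced) in all 5 culture conditions; points are libraries and lines are means of 3. At 24 h Psme1 and Psme2 lie lower in every condition with IL6 and TGFb than without cytokines, whereas Psme3 is high from 2 h in all of them.

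Replacement was followed as the log2 ratio of each immunoproteasome subunit to the subunit it can replace within a library. In naive cells the ratio was 2.66 ± 0.03 (SD, n = 3) for Psmb8 to Psmb5, 1.07 ± 0.10 for Psmb9 to Psmb6 and 1.66 ± 0.06 for Psmb10 to Psmb7. At 6 h without cytokines the ratios were -0.99 ± 0.09, -3.81 ± 0.07 and -2.81 ± 0.11, so all 3 had turned negative. At 72 h they were 1.75 ± 0.58, 0.48 ± 0.23 and -0.12 ± 0.66, below naive in every library. Without the 72 h library of course 1 the ratio of Psmb10 to Psmb7 turned positive, at 0.26, and the others were 2.08 and 0.60. These ratios are not divided by gene length, so their sign does not tell which transcript was more abundant. Their changes between groups do not depend on gene length. The mean change of the 3 ratios from naive was -2.89 at 2 h, -4.33 at 6 h, -2.82 at 24 h and -1.10 at 72 h (-0.82 without that library). Naive and stimulated libraries did not overlap for any ratio at these times, and each exact two-sided permutation test gave p = 0.1, the smallest that 3 against 3 allows (0.168 adjusted over 57 tests). Per coding length, naive cells held 6.16 ± 0.117 Psmb8 transcripts for each Psmb5 transcript, 2.29 ± 0.154 Psmb9 for each Psmb6 and 3.23 ± 0.129 Psmb10 for each Psmb7 (SD, n = 3). The same values at 6 h without cytokines were 0.480, 0.0742 and 0.140. Which length is used shifts these levels: per length of all annotated exons the naive values were 1.71, 1.08 and 6.40, and the 6 h values 0.134, 0.0349 and 0.278.

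**Figure D4:**
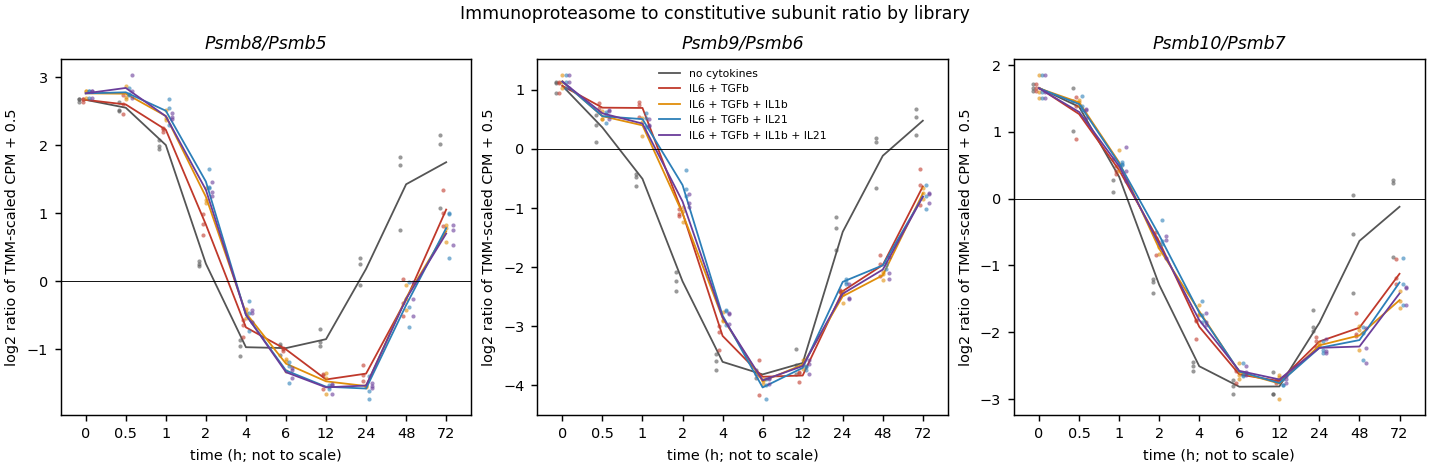
Log2 ratio of Psmb8 to Psmb5, Psmb9 to Psmb6 and Psmb10 to Psmb7 (TMM-scaled CPM plus 0.5) against time in culture in hours (times evenly spaced) in the 5 culture conditions, each point a library and each line a mean of 3. All 3 ratios start above 0, and those of Psmb9 and Psmb10 are negative from 2 to 24 h in the cultures without cytokines and with IL6 and TGFb.

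With IL6 and TGFb added to the stimulation, Psmb8, Psmb9, Psmb10, Psme1 and Psme2 were called higher at 2 h and lower at 72 h than without cytokines, and Psme4 lower at 2 h and higher at 72 h. Of these genes only Psmb9 kept its 2 h call without each course in turn. The 72 h call of Psmb8 was lost without course 2 or 3. The counts of called proteasome genes over the 4 times had the same order as those of all genes. At 2 h 7 of the 48 genes were higher and 1 lower than without cytokines (all genes 5.36% and 7.3%), and the 7 included Psmb8, Psmb9, Psmb10, Psme1 and Psme2. At 6 h none of the 48 was called by limma, edgeR or DESeq2 (all genes 2.8% and 1.76% by limma), and 1 had an unadjusted p under 0.05; blocked fits of only the libraries compared called 3 (Psmb10, Psme1 and Psme2). At 24 h 11 were higher and 4 lower (all genes 13.5% and 12.5%), and at 72 h 11 were higher and 6 lower (all genes 22.9% and 23.4%). Leaving out course 1, 2 or 3 in turn gave 7, 2 and 5 called genes for 2 h, 9, 11 and 7 for 24 h, and 27, 7 and 10 for 72 h. All 4 that were lower at 24 h and all 6 at 72 h belonged to the immunoproteasome or PA28. With the course as a block, which the course check allows at 2 h, the 2 h count was again 8. The median change over the 48 was 0.04, -0.03, 0.10 and 0.08 at 2, 6, 24 and 72 h. Without TMM scaling the 72 h split was 8 higher and 9 lower.

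Psmb9 had the largest early difference of the 48 genes. At 1 h it stood at 56.1, 56.7 and 57.4 without cytokines and 132, 132 and 115 with IL6 and TGFb, values for which no test was planned. At 2 h it stood at 25.4, 20.5 and 23.05 without and 60.1, 47.3 and 45.4 with the cytokines, and no library overlapped (log2 change 1.12 ± 0.15, adjusted p = 3.79e-07). Psmb8 stood at 45.1, 43.6 and 45.3 without and 85.7, 62.7 and 62.8 with the cytokines at 2 h (0.63 ± 0.17, adjusted p = 0.00683), and Psmb10 at 30.96, 29.2 and 29.1 and 54.7, 42.2 and 42.03 (0.62 ± 0.18, adjusted p = 0.0176). For both genes the libraries separated, with course 1 the highest of the treated. The call for Psmb8 was lost without course 2 (adjusted p = 0.12) and that for Psmb10 without course 2 or 3 (adjusted p = 0.191 and 0.124), whereas Psmb9 stayed called without any 1 course.

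Psme1 and Psme2 were also higher with the cytokines at 2 h. Psme2 stood at 168, 152 and 156 without and 276, 218 and 219.7 with them, without overlap (0.58 ± 0.14, adjusted p = 0.0027). Psme1 stood at 256, 231 and 252 and 376, 299 and 322, again separated (0.42 ± 0.10, adjusted p = 0.00268). Both calls were lost without course 2 (adjusted p = 0.0779 and 0.0776). The other genes higher at 2 h were the alpha subunit Psma7 (0.28 ± 0.08) and the core chaperone Psmg4 (0.47 ± 0.09). Psme4 was the gene called lower (-0.23 ± 0.07, adjusted p = 0.029), and its call was lost without any 1 of the courses.

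At 6 h the levels of the immunoproteasome genes overlapped between the conditions. Psmb9 was at 11.2, 10.4 and 11.2 without and 10.9, 8.88 and 12.2 with the cytokines (-0.04 ± 0.15, adjusted p = 0.997), and Psmb8 at 38.9, 36.6 and 31.1 and 36.9, 33.1 and 33.1 (-0.04 ± 0.17, adjusted p = 0.997). Psmb9 was by then near its lowest mean in both conditions. Psmb10 stood at 15.4, 15.3 and 13.4 and 18.6, 18.6 and 15.2 (0.24 ± 0.18, adjusted p = 0.781).

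At 24 h the order had turned for Psmb8 and Psmb9. Psmb8 had its lowest mean at 4 h without cytokines and at 24 h with IL6 and TGFb, whereas Psmb9 and Psmb10 were lowest at 4 or 6 h in both. At 48 h, a time given as values only, Psmb8 stood at 109, 162 and 179 without and 67.4, 52.5 and 58.9 with the cytokines. At 24 h Psmb8 stood at 80.6, 63.01 and 88.96 without and 30.2, 29.5 and 29.2 with the cytokines, a mean 2.62-fold lower (-1.36 ± 0.17, adjusted p = 1.17e-08). Psmb9 stood at 48.3, 41.8 and 63.8 and 24.8, 27.7 and 29.4 (-0.88 ± 0.15, adjusted p = 1.47e-05). In neither gene did the conditions overlap. Psmb10 stood at 24.8, 27.9 and 33.7 and 23.1, 25.9 and 28.5, which overlapped (-0.15 ± 0.18, adjusted p = 0.604).

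The PA28 genes Psme1 and Psme2 were also lower with the cytokines at 24 h. Psme2 stood at 171, 193 and 242 without and 51.1, 58.2 and 61.6 with the cytokines, a mean 3.55-fold lower (-1.81 ± 0.14, adjusted p = 1.79e-14). At 12 h it already stood at 191, 194 and 175 and 78.6, 78.0 and 74.9. The conditions were far apart at both times. Psme1 stood at 229, 256 and 296 without and 116, 126 and 134 with the cytokines at 24 h, also without overlap (-1.04 ± 0.10, adjusted p = 2.67e-11). The calls for Psmb8, Psmb9, Psme1 and Psme2 at 24 h held without each course in turn.

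At 72 h all 3 immunoproteasome subunits and all 3 interferon-responsive PA28 genes were lower with the cytokines. Psmb9 stood at 131, 121 and 151 without and 72.04, 51.98 and 62.1 with them (-1.12 ± 0.15, adjusted p = 7.53e-08), and Psmb10 at 49.9, 79.8 and 93.95 and 37.4, 31.4 and 37.04 (-1.02 ± 0.18, adjusted p = 1.07e-05). Both were separated, and for Psmb10 the nearest library was that of course 1. Psmb8 stood at 125, 192 and 238 and 136, 94.7 and 117, which overlapped (-0.64 ± 0.17, adjusted p = 0.00175), and its call was lost without course 2 (adjusted p = 0.177) or course 3 (adjusted p = 0.0973). Without the 72 h library of course 1 lacking cytokines, all 6 stayed called, at -0.89 for Psmb8, -1.13 for Psmb9, -1.29 for Psmb10, -0.47 for Psme1, -0.62 for Psme2 and -1.52 for Psme2b. Psme1 stood at 318, 206 and 239 and 164, 151 and 164 (-0.65 ± 0.10, adjusted p = 1.12e-06). Psme2 stood at 237, 129.9 and 159 and 91.8, 84.9 and 103 (-0.86 ± 0.14, adjusted p = 1.51e-06). In both genes the highest library without cytokines was that of course 1, and no library overlapped. Psme2b stood at 1.77, 6.36 and 6.12 and 2.36, 1.18 and 2.19, which overlapped, and its call (-0.999 ± 0.31, adjusted p = 0.00703) was lost without course 2 or 3. These p-values use a spread estimated over all groups. The 72 h libraries without cytokines stood 0.621, 0.338 and 0.329 from their group mean (root mean square log2 distance), and those with the cytokines 0.151, 0.141 and 0.116. Fits of only the libraries compared called fewer proteasome genes at 72 h, with counts in the last section. Which of these calls such fits keep is not given here.

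**Figure D5:**
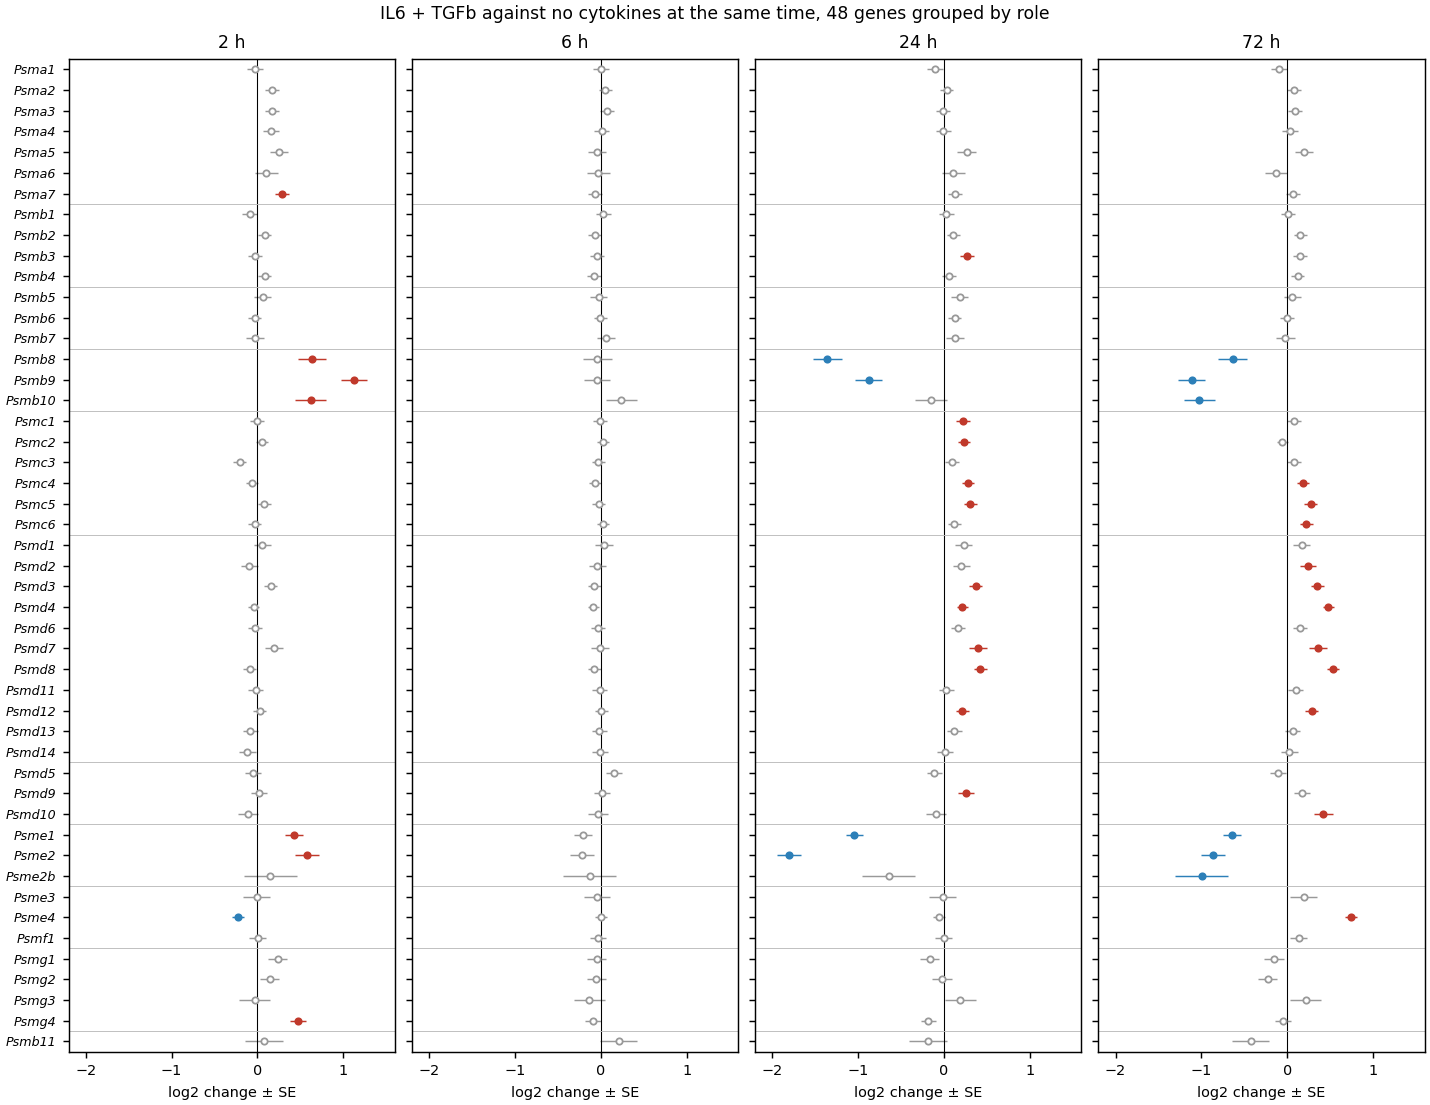
Log2 change ± SE between IL6 with TGFb and no cytokines (horizontal axis) for the 48 tested genes (rows) at 2, 6, 24 and 72 h of culture; filled red symbols are higher and filled blue symbols lower at an adjusted p under 0.05, open symbols are not called. Psmb8, Psmb9, Psme1 and Psme2 lie to the right at 2 h and to the left at 24 and 72 h, and no gene is called at 6 h.

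The constitutive catalytic subunits were called at none of these 4 times. Psmb5 changed by 0.06 ± 0.10 at 2 h, 0.18 ± 0.10 at 24 h and 0.06 ± 0.10 at 72 h. Genes of the regulatory particle were higher with the cytokines at late times: 4 of 6 ATPases and 5 of 11 non-ATPases at 24 h (all genes 13.5%), and 3 of 6 and 6 of 11 at 72 h (all genes 22.9%). The 24 h genes were Psmc1, Psmc2, Psmc4, Psmc5, Psmd3, Psmd4, Psmd7, Psmd8 and Psmd12, and the 72 h genes Psmc4, Psmc5, Psmc6, Psmd2, Psmd3, Psmd4, Psmd7, Psmd8 and Psmd12. The beta subunit Psmb3 and the chaperone Psmd9 were also higher at 24 h. Psmd8, a lid subunit, stood at 189, 148 and 156 without and 217, 258 and 236 with the cytokines at 72 h (0.53 ± 0.07, adjusted p = 8.62e-08). Psmd4 stood at 110.1, 98.6 and 104 and 141.1, 158 and 139 (0.48 ± 0.07, adjusted p = 4.86e-08). Neither gene's libraries overlapped. Among ATPases Psmc5 changed the most at 72 h (0.27 ± 0.07), a call lost without course 2 (adjusted p = 0.329). The chaperone Psmd10, also known as gankyrin, stood at 25.97, 20.2 and 25.04 and 31.9, 31.5 and 31.9 (0.42 ± 0.11, adjusted p = 0.0022), a small separated rise that was not called without course 2 (adjusted p = 0.167). Psme4 had the largest rise, from 116, 104 and 110.1 to 184, 177 and 191 (0.74 ± 0.07, adjusted p = 9.71e-12), with tight libraries in each group. No core chaperone and no alpha subunit was called at 72 h; Psmg2 changed by -0.23 ± 0.11, adjusted p = 0.0933, Psma5 by 0.20 ± 0.11 and Psmb2 by 0.15 ± 0.08, the largest of their groups. Without the 72 h library of course 1 Psma5 (0.30), Psmg3 (0.57), Psmd1 (0.25) and Psme3 (0.44) were among the genes called higher.

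The change of the cytokine effect from 2 to 72 h was tested as such. It was negative for 7 genes and positive for 6 (all genes 15.2% and 20.1%), and without TMM scaling for 10 and 4. The 7 were Psmb8 (-1.27 ± 0.24, adjusted p = 3.43e-05), Psmb9 (-2.24 ± 0.22, adjusted p = 2.47e-11), Psmb10 (-1.64 ± 0.26, adjusted p = 1.99e-06), Psme1, Psme2, Psme2b and Psmg4. The 6 were Psme4 (0.97 ± 0.10, adjusted p = 1.88e-10), Psmd8, Psmd4, Psmd10, Psmc3 and Psmc4. Leaving out the 72 h library of course 1 gave 19 genes in all in place of 13, and leaving out course 1, 2 or 3 gave 25, 8 and 9.

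In the ratios the cytokine effect had the same course. At 2 h with IL6 and TGFb the ratio of Psmb9 to Psmb6 was -1.08 ± 0.06, and without them -2.24 ± 0.16. At 24 h the ratio of Psmb8 to Psmb5 was -1.36 ± 0.12 with and 0.18 ± 0.20 without. The mean difference over the 3 ratios was 0.79 at 2 h, 0.04 at 6 h, -0.94 at 24 h and -0.94 at 72 h (-1.22 without the 72 h library of course 1 lacking cytokines). The libraries of both conditions were separated for all 3 ratios at 2 and 24 h (exact permutation p = 0.1 each, 0.168 adjusted), and at 72 h for all but Psmb8 to Psmb5 (exact permutation p = 0.2, adjusted 0.308), which separated too without that library. Per coding length, cells with IL6 and TGFb at 24 h held 0.369 Psmb8 for each Psmb5, 0.202 Psmb9 for each Psmb6 and 0.227 Psmb10 for each Psmb7, against 1.09, 0.414 and 0.278 without cytokines. Per length of all annotated exons these values were 0.103, 0.0952 and 0.450 with the cytokines and 0.303, 0.195 and 0.549 without, so the levels depend on the length used.

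Compared with naive cells, 24 h of stimulation with IL6 and TGFb left 41 genes higher and 7 lower (all genes 37.4% and 38.1%), with a median log2 change of 1.27. The 7 were Psmb8 (-2.54 ± 0.17), Psmb9 (-2.41 ± 0.15), Psmb10 (-2.24 ± 0.18), Psme1 (-0.996 ± 0.10), Psme2 (-1.46 ± 0.14), Psme2b and Psmb11. In courses 4 to 6 the counts at 24 h against their own naive cells were also 41 and 7, with IL1b (all genes 37.8% and 41.4%), with IL21 (all genes 37.6% and 41%) and with both (all genes 38.2% and 41.5%). The 7 lower genes were those 7 in each cocktail. Among them Psmb11 and Psme2b passed the filter through groups where they were high, so their part in this overlap is not independent of the filter. The call for Psmb11 was lost without course 3 with IL6 and TGFb (adjusted p = 0.147) and without course 6 in each cocktail. Psmb8 stood at 187, 196 and 169.9 in these naive cells and at 24.8, 26.4 and 25.1 with IL1b, 23.6, 22.8 and 21.7 with IL21 and 25.7, 25.3 and 27.2 with both. Psmb9 went from 147, 166 and 140.6 to 25.4, 24.6 and 22.9, 28.4, 28.004 and 25.7 and 27.8, 24.5 and 27.2 in the same order. All stimulated libraries lay far below the naive ones, and the cocktails lay close together. By 72 h Psmb8 stood at 102, 123 and 119.5 with IL1b, 69.9, 121 and 108 with IL21 and 79.1, 117 and 107 with both. These libraries lay between the 24 h and the naive ones, with course 4 the lowest in each cocktail. The log2 change at 24 h with both cytokines was -2.80 ± 0.15 for Psmb8, -2.49 ± 0.11 for Psmb9, -2.32 ± 0.14 for Psmb10 and -1.19 ± 0.11 for Psme2. Psme2 stood at 63.3, 63.3 and 68.2 with IL1b, 56.8, 63.1 and 60.5 with IL21 and 65.2, 65.2 and 67.5 with both at 24 h, against 155, 162 and 138 in naive cells. Psme1 stood at 129, 131 and 136, 127, 128 and 123 and 130.5, 135 and 139 in the same order, against 254, 274 and 229.6. No cocktail library reached the naive range of either gene. Cocktails and IL6 with TGFb alone were grown in separate courses, so the sets are given side by side and were not compared.

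Few of these genes differed between the cocktails with IL1b and IL21. As means over 4 to 12 h, no gene was called between the IL1b and IL21 cocktails (all genes 0.0673% higher and 0.108% lower), between both and IL21 (0.00673% and 0%) or between both and IL1b (0.101% and 0.0336%); edgeR and DESeq2 also called none, and 0, 0 and 1 genes had an unadjusted p under 0.05. The largest changes there were in the low genes Psmb11 (0.19 ± 0.13) and Psme2b (-0.20 ± 0.14 and -0.17 ± 0.14). As means over 24 to 72 h, 4 genes were higher with IL1b than with IL21 and none lower (all genes 4.33% and 6.7%). They were Psma6 (0.27 ± 0.06, adjusted p = 3.56e-04), Psmd8 (0.14 ± 0.04), the deubiquitinase Psmd14 (0.13 ± 0.04) and Psmd9 (0.12 ± 0.04). Psma6, Psmd8 and Psmd14 were also higher with both than with IL21 (3 genes, none lower; all genes 3.26% and 3.39%), and none was called between both and IL1b (all genes 0% and 0%; edgeR and DESeq2 none, unadjusted 0). Leaving out course 4, 5 or 6 gave 1, 4 and 0 for IL1b against IL21 and 1, 0 and 1 for both against IL21. With the course as a block, which the course check allows for these comparisons, the late counts were 8 and 4, and 7 and 6 in fits of only the libraries compared. Between the IL1b and IL21 cocktails at these times Psmb8 changed by 0.18 ± 0.08, adjusted p = 0.164, Psmb9 by -0.003 ± 0.07, adjusted p = 0.986 and Psmb10 by 0.04 ± 0.08, adjusted p = 0.857, none called. The largest late change was that of Psme2b between IL1b and IL21 (-0.28 ± 0.14, adjusted p = 0.219) and between both and IL1b (0.15 ± 0.14), and that of Psma6 between both and IL21 (0.25 ± 0.06). The naive groups of the course sets gave no call among the 48 (all genes 0.144% and 0.00652%; edgeR and DESeq2 none, unadjusted 0), with changes from -0.11 (Psmf1) to 0.13 (Psmg3).

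Other genes of the pathway were taken as lists. Of 19 proteasome partners (ubiquitin shuttles, segregase subunits, deubiquitinases and the Nrf1 and Nrf2 axis), 15 rose and 4 fell at 6 h without cytokines, with a median of 0.83 (all genes 34.9% and 37.5%), and with IL6 and TGFb 11 were higher and 1 lower at 72 h (all genes 22.9% and 23.4%). Pomp, the chaperone that completes the core, was among those that rose (1.30 ± 0.12 at 24 h without cytokines, and 0.70 ± 0.12 more with IL6 and TGFb). Of 12 genes of class I antigen presentation, 4 rose and 8 fell at 6 h, with a median of -1.39. With IL6 and TGFb 5 were higher and 1 lower at 2 h (all genes 5.36% and 7.3%), 1 was higher and 4 lower at 24 h (all genes 13.5% and 12.5%), and 1 was higher and 7 lower at 72 h. Tap1 and Tap2, the peptide transporter next to Psmb8 and Psmb9, fell at 6 h (-2.17 ± 0.13 and -1.93 ± 0.12) and were higher with the cytokines at 2 h (1.24 ± 0.13 and 0.71 ± 0.12). Tapbp, which loads peptides, was lower with the cytokines at 24 h (-2.07 ± 0.15).

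Of 18 interferon response genes, 15 fell and 2 rose at 6 h without cytokines, with a median of -2.96, and with IL6 and TGFb all 18 were higher at 2 h, with a median of 2.01 (all genes at 6 h 34.9% higher and 37.5% lower, at 2 h 5.36% higher). At 72 h 3 were higher and 6 lower with IL6 and TGFb (median -0.22; all genes 22.9% and 23.4%), and the change of the effect from 2 to 72 h was negative for 14 of 18 (all genes 15.2%). The summed level of the 18 at 2 h was 775 to 858 without and 3146 to 4503 with the cytokines, and at 72 h 1088 to 1548 and 2346 to 2931, so that at 72 h the sum was higher with the cytokines although the median change was negative. Irf1, an interferon-induced activator of Psmb9, was higher at 2 h (1.42 ± 0.21) and lower at 72 h (-1.27 ± 0.21). Whether interferon plays a part in the changes of Psmb8, Psmb9 and Psmb10 was not tested.

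Markers of T cells and of other cells also moved between the groups. At 6 h without cytokines 5 of 6 T cell markers had fallen from naive, as had 6 of 7 tested B cell markers (summed level 3.63 to 5.93), 6 of 7 myeloid markers (29.5 to 30.4, naive 58.9 to 61.6), 4 of 4 NK and gamma-delta T cell markers (2.44 to 2.82, naive 15.2 to 18.5), 5 of 6 erythroid and platelet markers (14.96 to 20.9) and 1 of 2 CD8 T cell markers (all genes 37.5%). At 2 h 5 of 6 T cell markers were lower with IL6 and TGFb (summed level 2958 to 3249 without and 2066 to 2422 with them; all genes 7.3%). At 24 h the 2 CD8 T cell markers summed to 32.8 to 40.7 without cytokines and 1.98 to 2.65 with IL6 and TGFb, most of it Cd8b1, which fell (-3.78 ± 0.15). The 10 myeloid markers summed to 24.2 to 28.7 and 42.1 to 43.2 there, and the 8 B cell markers to 1.98 to 3.85 and 2.58 to 2.86. The 6 NK and gamma-delta T cell markers summed to 0.865 to 1.47 and 2.31 to 3.73, with Ncr1 at 0 in both. Of those tested, only 1 of 7 myeloid and 2 of 4 NK and gamma-delta markers were called higher (all genes 13.5%). No B cell marker was called, and none of the 3 lists had a marker called lower (all genes 12.5%). The median change of the myeloid markers was 0.20. At 72 h the NK and gamma-delta markers summed to 0.935 to 4.005 and 17.7 to 24.5. Of the 4 tested, 2 were called higher and 1 lower with the cytokines (all genes 22.9% and 23.4%). Their log2 changes ranged from -0.95 to 4.82, with a median of 0.48, so the sum does not stand for each marker. The 8 erythroid and platelet markers summed to 30.9 to 54.8 in naive cells and to 3.596 to 4.03 at 24 h without cytokines, with Pf4 and Ppbp at 0. The T cell markers themselves were at 1123 to 1436 at 6 h, 2250.0 to 2558 at 24 h without cytokines and 1665 to 1854 with IL6 and TGFb. The part of other cells in the changes of the proteasome genes was not tested.

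Across the 47 group means, each gene's pattern was set beside the mean of Psmb8, Psmb9 and Psmb10 and the mean of Psmb5, Psmb6 and Psmb7, over the 9599 other genes whose level averaged 5 CPM or more, proteasome genes left out. Gene models without a symbol of their own were not named. The 5 others most like the former were Herc6 (Pearson r 0.985), Sp100 (0.970), Atxn7l1 (0.955), St8sia4 (0.953) and Anxa6 (0.952). The 5 most like the latter were Vcp (0.987), Mrpl19 (0.986), Slirp (0.984), Magohb (0.983) and Mrpl20 (0.983). Against the constitutive mean Psma6 had r = 0.993, Psmc1 0.990, Psmb1 0.71, Psmb8 -0.77, Psmb9 -0.82 and Psmb10 -0.91. Psme1 and Psme2 followed neither: their r was -0.11 and 0.11 with the immunoproteasome mean and -0.05 and -0.23 with the constitutive mean. These values are descriptions over groups that share courses and naive cells.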

How the data were processed

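The deposited values are CPM by the evidence of the values themselves: all columns sum to the same total, and whole reads were recovered for 100% of nonzero values (tolerance 0.001). TopHat and HTSeq are listed, without versions or roles, in the submitters' processing notes, as are mm9 and a human build, GRCh37. The sources used here do not give the annotation or the strand setting. No columns of other samples were found (0), and the 37 mitochondrial genes were at 0 throughout. Symbols were matched to GENCODE vM21 and RefSeq tables for positions, lengths and promoters; the files' own build was not used for coordinates.

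Genes reaching 1 CPM in 3 or more libraries were tested with limma-trend, on TMM-scaled CPM plus a pseudocount of 0.5 on a log2 scale, which understates changes of low genes: 14695 genes in courses 1 to 3 (19 groups, 38 residual degrees of freedom), 14859 in courses 4 to 6 (28 groups, 56) and 15328 over all (94). edgeR and DESeq2 on the recovered reads were alternatives. Adjusted p-values are Benjamini-Hochberg over all genes of a comparison. Libraries of a course were checked for pairing by correlating, over genes, how they deviate from their group means: r exceeded 0.1 in every course for IL6 and TGFb against none at 2 h (lowest 0.405), for the IL1b cocktail against naive (0.126) and for all comparisons between cocktails (lowest 0.218), and not for the others. In simulated reads for 14695 genes, some genes were changed only in the libraries of IL6 and TGFb at 24 h. Limma called 34.3%, 92.5% and 93.9% of genes changed by folds of 1.5, 2 and 3 and 0.028% of unchanged genes. The simulation had no other differences between groups, no course effects and the same spread for all genes. These shares therefore check the code and do not give the power or error rate in the real libraries.

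The members and lists were chosen with earlier results of these data known. Library levels, log2 changes or both are given for members named by rule. These are the catalytic subunits, Psme1 and Psme2, and the member with the largest change of each role group without cytokines at 24 h and with IL6 and TGFb at 72 h. Members called against most others and those with the largest change in a cocktail comparison were also named by rule. Psma7, Psmb1, Psmb3, Psmc2, Psmc6, Psmd2, Psmd3, Psmd7, Psmd12, Psmd14, Psmg4 and Psmf1 were named after their values were seen. Psma6, Psmc3 and Psmc4 met the rule in a single comparison each, and were named elsewhere after their values were seen. Where nothing says otherwise, limma p-values rest on the spread between the 3 libraries of a group, estimated jointly over all groups of a fit. They do not measure the spread of the compared groups alone, which can be wider. The tools were limma 3.58.1, DESeq2 1.42.0, edgeR 4.0.16 and data.table (1.17.8), run in R 4.3.3.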

Additional observations from a re-analysis of the deposited data

Results flagged for a closer look

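The effect of IL6 with TGFb against no cytokines differed between 72 h and 2 h for 13 of the 48 tested proteasome genes (limma, test of the difference, adjusted over all genes tested). The difference, given as the log2 effect at 72 h minus that at 2 h, was negative for 7 and positive for 6 (all genes 15.2% and 20.1%). It was -2.24 for Psmb9, -1.64 for Psmb10, -1.27 for Psmb8, -1.44 for Psme2, -1.07 for Psme1 and -1.15 for Psme2b, and -0.53 for Psmg4. In the former 6 the fitted effect was positive at 2 h and negative at 72 h, but that of Psme2b at 2 h (0.15) was not called. The call for the difference in Psme2b was lost without course 2 (adjusted p = 0.441) or course 3 (adjusted p = 0.285). The difference was 0.97 for Psme4, 0.63 for Psmd8, 0.53 for Psmd4, 0.53 for Psmd10, 0.28 for Psmc3 and 0.25 for Psmc4. The Psmc3 call was lost without the 72 h library of course 1 (adjusted p = 0.151) and without each course. The Psmc4 and Psmd10 calls were lost without course 2 (adjusted p = 0.489 and 0.335) and course 3 (adjusted p = 0.189 and 0.0604), and the Psmc3 and Psmc4 calls also without TMM scaling (adjusted p = 0.135 and 0.126).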

How the results depend on the processing

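Counts of called proteasome genes stayed within 1.5 times in all 20 comparisons with edgeR, with DESeq2 and with a pseudocount of 0.1. With courses left out in turn, the count for IL6 and TGFb against none ranged from 2 to 7 at 2 h (8 with all courses), 7 to 11 at 24 h (15) and 7 to 27 at 72 h (17). For the change of that effect from 2 to 72 h it ranged from 8 to 25 (13), for the IL1b against the IL21 cocktail late from 0 to 4 (4) and for both against IL21 late from 0 to 1 (3). Without the library lacking cytokines at 72 h of course 1 the counts were 27 at 72 h and 19 for the change of effect. With only the libraries compared in the fit the count was 8 at 72 h, 1 for IL1b against IL21 late and 1 for both against IL21 late. IL1b against IL21 late gave 2 without the filter and 12 without TMM scaling. With the course as a replicate block it gave 8, and in blocked fits of only the libraries compared the counts were 7 there, 6 for both against IL21 late, 3 at 6 h and 2 at 72 h. Without TMM scaling, at 2 h against naive, Psmd4 (-0.0444) and Psmc3 (-0.0122) turned to the lower side without passing the test. The mean change of the 3 ratios at a pseudocount of 0.1 was -4.38 at 6 h against naive and -3.79 at 24 h of IL6 and TGFb against naive. With courses left out it ranged from -0.0053 to 0.11 for the cytokine effect at 6 h and from -1.35 to -0.70 at 72 h. The causes were not tested. The block could not be fitted for the naive groups, which share no course numbers. Psme2b, Psmb11 and Psma8 are limited by depth.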
